A study of Homo sapiens with 6 samples.

Results

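The collagen genes are the 44 protein-coding genes, of the 58174 genes in the deposited mRNA-seq table, whose symbol has the form COL, a type number, A and a chain number. They were chosen by symbol and gene type, not by a measured value. 11 encode fibrillar collagens, 8 encode basement membrane collagens (type IV and the multiplexins COL15A1 and COL18A1) and 25 encode the other types. The established cell line KNS42 comes from a pediatric glioblastoma (GBM) and was grown adherently in serum-containing medium. KNS42 cells were transfected with a control siRNA (siC) or with siRNA against MSI1 (siMSI1), the mRNA of the RNA-binding protein Musashi1, and were harvested 72 h later, with 3 libraries per group. The knockdown was transient and both groups are the same line, so no clone or genotype separates them. Nothing in the labels says that the libraries come from separate cultures, and p-values measure only the spread between these libraries, which may be technical.

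Collagens are secreted or membrane-bound proteins of several chains wound into a triple helix, made of identical or different chains. Fibrillar collagens assemble into fibrils outside the cell, type IV collagens form the network of basement membranes, and other types decorate fibrils, form filaments or anchor cells. In normal brain they are found mainly around vessels and in the meninges, and GBM cells are known to deposit matrix of their own. The comparison asks which collagen chains KNS42 cells express and how their mRNAs differ upon MSI1 knockdown.

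Levels are given in FPKM, reads normalized for gene length and sequencing depth, so that genes of different length can be compared. The 6 libraries held 13087025 to 18024080 reads on genes. MSI1 had levels of 63.7, 61.9 and 66.9 FPKM in the siC and of 12.1, 12.3 and 11.2 FPKM in the siMSI1 libraries, and its log2 fold change was -2.43 (SE 0.067, limma adjusted p = 8.71e-06). The neural progenitor and glioma markers SOX2, NES, VIM, FABP7, MSI1, MSI2 and SOX9, taken as a check of the cell type, were expressed in all libraries and summed to 1505 to 1568 FPKM in siC and to 1202 to 1297 FPKM in siMSI1. VIM gave most of this sum, with a mean of 1035 FPKM in siC, and MSI1 is the siRNA target. FABP7 (log2 fold change -1.12, limma adjusted p = 0.000274) and SOX9 (-0.61, limma adjusted p = 0.000976) were called lower. SOX2, NES, VIM and MSI2 were lower without passing the test. Of 5 endothelial markers, TIE1 and CLDN5 never exceeded 3 reads, and the list summed to 0.134 to 0.264 FPKM in siC and 0.30 to 0.442 FPKM in siMSI1. CDH5 had 2, 3 and 0 reads in siC and 9, 11 and 22 in siMSI1, and PECAM1 had 1, 1 and 0 and then 8, 7 and 5. VWF had 36, 37 and 20 reads in siC and 18, 14 and 21 in siMSI1, with overlap in FPKM. Of 4 immune markers, AIF1 was at 0 and PTPRC had at most 3 reads, and the list summed to 0.172 to 0.241 FPKM in siC and 0.301 to 0.588 FPKM in siMSI1. CD68 had 6, 8 and 5 reads in siC and 8, 10 and 16 in siMSI1, without overlap in FPKM, and CSF1R had 1 to 4 reads, with overlap. The part of these shifts in the collagen values was not tested. For the markers other than MSI1, fewer cells of a type and less RNA per cell cannot be told apart in such bulk samples.

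KNS42 cells expressed a narrow set of collagen chains. 15 of the 44 genes reached a mean of 0.5 FPKM over the 6 libraries and were tested, namely 4 fibrillar, 7 basement membrane and 4 other chains. A further 17 had more than 3 reads in at least 1 library but a lower mean, 11 never exceeded 3 reads, and COL6A5 had no read. The chains with the highest level were COL11A1 and COL5A2, the fibrillar chains of types XI and V, and COL18A1, the multiplexin whose C-terminal fragment is endostatin. These 3 genes together made up 54.7% to 58.1% of the summed collagen FPKM of a library. COL5A2 was above 92.2% of all tested genes in mean FPKM, whereas COL1A1 was above 34.6% and COL1A2 above 4.56%.

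**Figure D1:**
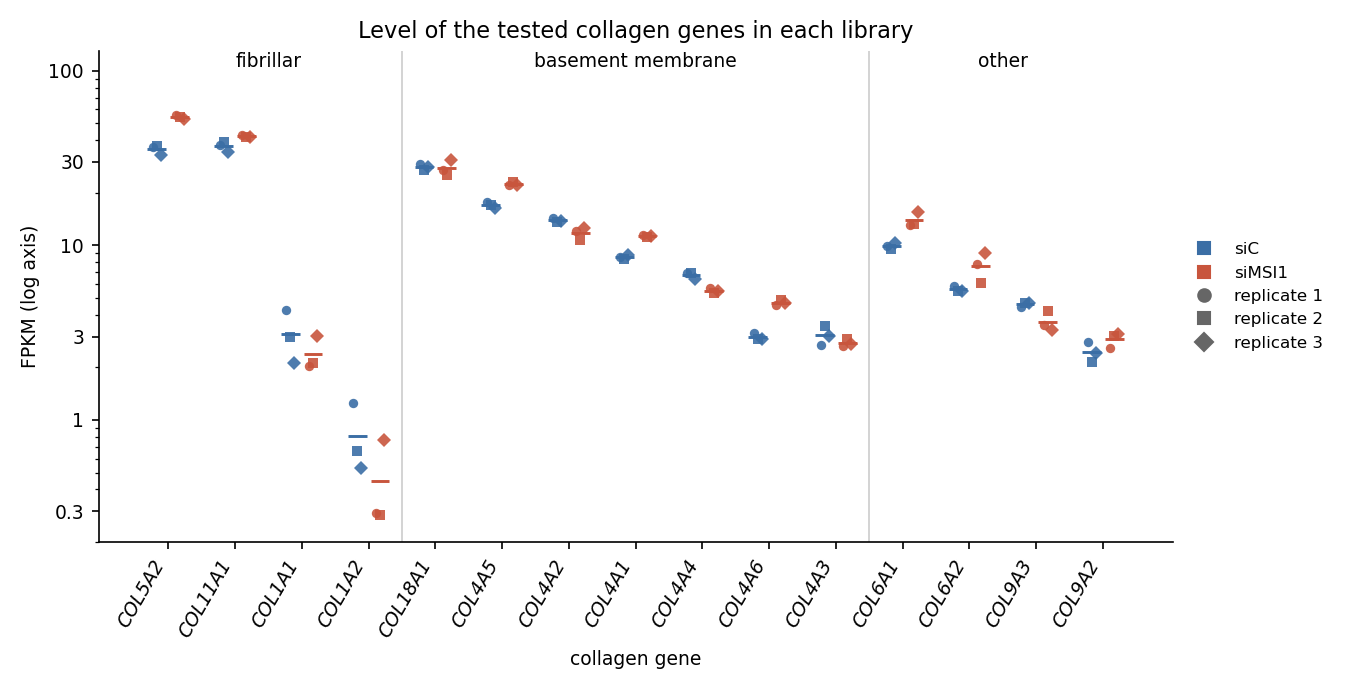
FPKM of the 15 tested collagen genes in each library on a log axis, ordered by class and mean level, with siC in blue, siMSI1 in red, symbols for replicates and a bar at the mean of each group. COL5A2 rises from 33.0 to 36.8 FPKM in siC to 53.1 to 55.5 FPKM in siMSI1, while the COL1A1 and COL1A2 points of the groups are mixed.

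The summed FPKM of all 44 collagen genes was 188, 183 and 174 in siC and 216, 210 and 222 in siMSI1, so that the groups did not overlap. The mean sum was 34.6 FPKM higher in siMSI1, at 216 ± 5.96 against 182 ± 7.13 (SD, n = 3 each). COL5A2 alone made up 54.6% of this difference, the fibrillar class as a whole 66.1%, the basement membrane class 16.5% and the other class 17.4%. Collagen genes took 0.137% to 0.149% of the reads in siC and 0.165% to 0.173% in siMSI1.

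5 of the 15 tested chains were higher in siMSI1 at an adjusted p of at most 0.01 (limma on log2(FPKM + 0.1), Benjamini-Hochberg over the 15069 tested genes), namely COL5A2, COL4A6, COL4A5, COL4A1 and COL6A1. Over all tested genes, 5.15% were called higher, 5.83% lower and 11.0% in either direction. Of the 11365 tested protein-coding genes, 683 were called higher and 806 lower. No tested chain was called lower by limma, with 3 lower and 7 higher chains at an unadjusted p under 0.05. By limma's voom on the reads of the same genes, which called 18.9% of all genes, the same 5 chains were called and again none lower. With the replicate number as a further term, voom called 33.6% of all genes and 10 chains, of which COL4A2, COL4A4 and COL9A3 were lower. The siC and siMSI1 libraries did not overlap for 10 of the 15 chains, 7 higher and 3 lower. They did not overlap for 42.8% of all tested genes and for 5500 of the 11365 tested protein-coding genes. The median log2 fold change was 0.19 over the 15 chains, -0.07 over the 4 fibrillar, -0.02 over the 7 basement membrane and 0.33 over the 4 other chains, and 1.46e-05 over all tested genes. The fibrillar median rests in part on COL1A2 (-0.77), which reached the level tested through its siC libraries. The other tested fibrillar chains were COL5A2 (0.62), COL11A1 (0.19) and COL1A1 (-0.33), so the sign of this median depends on COL1A2. Of the 5 calls, only that of COL5A2 held when any 1 library was left out. Leaving out siC replicate 1, 2 or 3 or siMSI1 replicate 1 or 2 left COL5A2 as the single chain called, and leaving out siMSI1 replicate 3 left all 5. Over all tested genes the 1655 calls also fell, to between 528 and 888 in the former fits and to 1603 in the latter. The chains are rich in GC, with a median of 55.2% against 47.6% for the tested protein-coding genes, and after correcting the libraries for GC content, where 20.5% of all tested genes were called, the same 5 chains were called higher and COL4A4 lower.

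**Figure D2:**
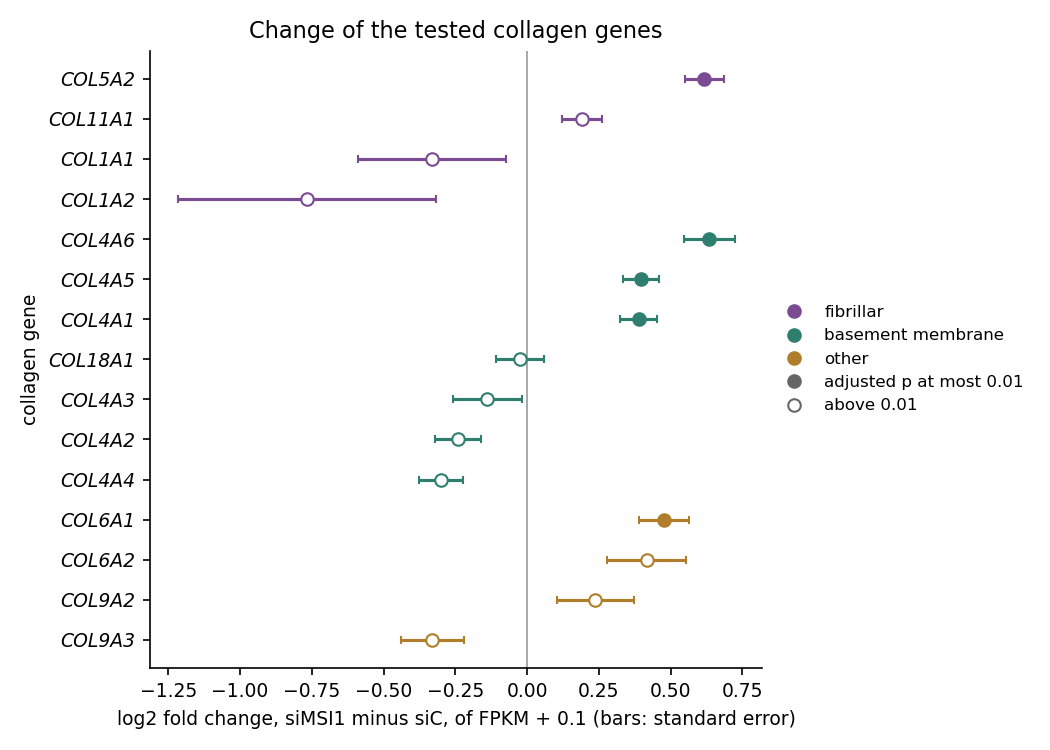
log2 fold change of each tested collagen gene, siMSI1 minus siC, on the log2(FPKM + 0.1) scale with its standard error, grouped by class, filled where the adjusted p is at most 0.01. The 5 filled points lie between 0.39 and 0.63, and the fibrillar and basement membrane classes each hold chains on both sides of 0.

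COL5A2, the second chain of type V collagen, which is known to set the diameter of collagen fibrils, gave 36.5, 36.8 and 33.0 FPKM with control siRNA and 55.5, 54.4 and 53.1 FPKM upon MSI1 knockdown. All siMSI1 libraries were above all siC libraries, and the mean rose from 35.4 ± 2.15 to 54.3 ± 1.18 FPKM (SD, n = 3 each). The log2 fold change was 0.62 (SE 0.067, limma adjusted p = 0.000915), a 1.53-fold difference. It was called in 19 of 19 alternative fits, with an adjusted p of 0.00154 to 0.00673 when a library was left out. COL5A2 lies on the minus strand of chromosome 2 (chr2:189031898-189225312, GRCh38, GENCODE 44), 19151 bases from the fibrillar collagen gene COL3A1.

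The partner chains of COL5A2 were not at its level. COL5A1, which supplies the main chain of type V trimers, had 12, 10 and 1 reads in siC and 6, 8 and 17 in siMSI1, a mean of 0.054 FPKM over the 6 libraries. COL5A3 had 12, 6 and 11 reads in siC and 4, 0 and 5 in siMSI1. COL11A1, whose chain is known to form mixed type V and type XI trimers with the COL5A2 chain, had levels of 37.4, 39.1 and 34.1 FPKM in the siC and of 42.8, 41.9 and 41.5 FPKM in the siMSI1 libraries. The COL11A1 groups did not overlap, with a log2 fold change of 0.19 (SE 0.069), which did not pass the test (limma adjusted p = 0.080). COL11A2, which encodes another type XI chain, never exceeded 1 read.

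COL1A1 and COL1A2 encode the chains of type I collagen, the main collagen of connective tissue. COL1A1 gave 4.25, 3.0 and 2.11 FPKM with control siRNA and 2.04, 2.13 and 3.04 FPKM upon MSI1 knockdown. COL1A2 had levels of 1.25, 0.664 and 0.530 FPKM in the siC and of 0.292, 0.287 and 0.768 FPKM in the siMSI1 libraries, and reached the level tested through its siC libraries. The groups overlapped for both genes. Neither passed the test, with log2 fold changes of -0.33 (SE 0.258, limma adjusted p = 0.391) for COL1A1 and -0.77 (SE 0.449, limma adjusted p = 0.254) for COL1A2.

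Within each group these fibrillar genes had their highest values in the same library, a pattern noticed after the values were seen. COL3A1, the type III chain, had 106, 54 and 3 reads in siC and 15, 17 and 84 in siMSI1. COL1A1, COL1A2, COL3A1, COL5A1 and the type VI chain gene COL6A3 (14, 13 and 3 reads in siC, 5, 3 and 19 in siMSI1) were all highest in siC replicate 1 among the siC libraries and in siMSI1 replicate 3 among the siMSI1 libraries, and lowest in siC replicate 3 among the siC libraries. COL5A2 and COL11A1 did not follow this order. Of 6 fibroblast and mural markers, ACTA2, a contractile actin, was highest in the same libraries as these genes, whereas DCN, LUM, PDGFRA, PDGFRB and RGS5 were highest in siC replicate 2 among the siC libraries. Among the siMSI1 libraries DCN was highest in replicate 3, LUM, PDGFRA and PDGFRB in replicate 2 and RGS5 in replicate 1. ACTA2, DCN and LUM were lowest in siC replicate 3 among the siC libraries. DCN, which encodes the fibril-binding proteoglycan decorin, had 7, 10 and 3 reads in siC and 4, 5 and 19 in siMSI1. LUM, a related proteoglycan, had 6, 11 and 2 reads in siC and 3, 5 and 4 in siMSI1, and the growth factor receptor gene PDGFRB had 7, 16 and 10 and then 14, 33 and 24. PDGFRA and PDGFRB were higher in every siMSI1 library in FPKM, and LUM overlapped. The list summed to 82.6 to 88.3 FPKM in siC and 63.3 to 71.1 FPKM in siMSI1, with none of its members at 0. This lower sum came from ACTA2, which fell from 63.5 ± 3.25 to 41.8 ± 5.45 FPKM (SD, n = 3 each). The log2 fold change of ACTA2 was -0.61 (limma adjusted p = 0.00445, and 0.00119 to 0.0244 with a library left out). PDGFRA averaged 20.9 and 24.1 FPKM without passing the test (limma adjusted p = 0.0621). The part of these markers in the type I and type III values was not tested.

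The 6 type IV chains were all tested. Their genes lie in head-to-head pairs on opposite strands, COL4A1 with COL4A2, COL4A3 with COL4A4 and COL4A5 with COL4A6, so that the members of a pair start close to each other and are transcribed apart. COL4A1 and COL4A2 chains make up the type IV collagen of most basement membranes, whereas the other chains form the networks known from kidney, lung and smooth muscle. The summed type IV level was 53.4, 52.4 and 51.4 FPKM in siC and 58.6, 58.0 and 58.9 FPKM in siMSI1, with no overlap between the groups.

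The region between the paired start sites is shown because the genes of a pair share it, while in the COL4A1 and COL4A2 pair only COL4A1 was called. RefSeq start sites on GRCh38 are 126 bases apart for COL4A1 and COL4A2, 418 for COL4A4 and COL4A3 and 379 for COL4A6 and COL4A5, counting the bases between them. For COL4A6 the start site nearest to COL4A5 was taken, and another lies outside this region at chrX:108438422. For each pair, 30 bases of the plus strand between the start sites are printed 5′ to 3′. Capitals mark CCAAT or its reverse complement ATTGG for the COL4A1 and COL4A2 pair (chr13:110307166-110307195) and the COL4A6 and COL4A5 pair (chrX:108439586-108439615), and the GC box GGGCGG for the COL4A4 and COL4A3 pair (chr2:227164495-227164524).
COL4A1 and COL4A2: cgggccgagctccCCAATttgttggcgctg
COL4A4 and COL4A3: gagggggtatgaGGGCGGgacctgagccac
COL4A6 and COL4A5: gcacaCCAATgagATTGGaactgagcctag

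The bases between the start sites held CCAAT on either strand 1 time in the COL4A1 and COL4A2 pair, 3 times in the COL4A6 and COL4A5 pair and 0 times in the COL4A4 and COL4A3 pair. The GC box GGGCGG or its reverse complement CCGCCC was found 1, 0 and 2 times in the same order of pairs, and the TATA box TATAAA or TTTATA in none. GC made up 80.2% of these bases in the COL4A1 and COL4A2 pair, 70.1% in the COL4A4 and COL4A3 pair and 48.6% in the COL4A6 and COL4A5 pair. Of 35116 RefSeq promoters of 300 bases (250 before to 50 after the start site), 34.6% held CCAAT on either strand, 45.0% the GC box and 11.5% the TATA box. Promoters matched for 10 of the 15 tested chains, with 12 start sites in all, and not for COL1A1, COL1A2, COL5A2, COL6A1 and COL9A3. Of these 12 promoters, 5 held CCAAT, 9 the GC box and 2 the TATA box. The promoters of COL4A1 and COL4A2 overlap, as do those of COL4A5 and COL4A6, so some matches count for both genes and the 12 are not independent. These matches are letters only and describe no binding.

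COL4A1 gave 8.54, 8.36 and 8.85 FPKM with control siRNA and 11.4, 11.1 and 11.3 FPKM upon MSI1 knockdown. All siMSI1 libraries were higher, with a log2 fold change of 0.39 (SE 0.064, limma adjusted p = 0.00481; 0.00870 to 0.0307 with a library left out). COL4A2, its partner, had levels of 14.3, 13.6 and 13.7 FPKM in the siC and of 12.0, 10.7 and 12.6 FPKM in the siMSI1 libraries. All siMSI1 libraries were lower for COL4A2, but the log2 fold change of -0.24 (SE 0.080) did not pass the test (limma adjusted p = 0.061). The ratio of COL4A1 to COL4A2 was therefore 0.595, 0.613 and 0.646 in siC and 0.945, 1.04 and 0.896 in siMSI1. In GENCODE 44 these genes overlap by 1346 bases on opposite strands (chr13:110305812-110307157). The libraries are strand-specific by their labels, but whether the counting used strand is not given in the sources used here, and reads in this stretch could belong to either gene. The lncRNAs COL4A2-AS1 and COL4A2-AS2 also overlap COL4A2 on the opposite strand, with 3 to 16 and 4 to 7 reads in a library. COL4A2-AS1 was lower in siMSI1 with no overlap and did not pass the test (log2 fold change -0.78, SE 0.312, limma adjusted p = 0.108).

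COL4A5 gave 17.7, 17.1 and 16.4 FPKM with control siRNA and 22.3, 23.1 and 22.1 FPKM upon MSI1 knockdown. It rose in all siMSI1 libraries, with a log2 fold change of 0.40 (SE 0.062, limma adjusted p = 0.00383; 0.00554 to 0.0186 with a library left out). COL4A6 had levels of 3.15, 2.90 and 2.92 FPKM in the siC and of 4.52, 4.86 and 4.70 FPKM in the siMSI1 libraries. Its log2 fold change of 0.63 was the largest of the 5 called chains (SE 0.089, limma adjusted p = 0.00240; 0.00569 to 0.0118 with a library left out). Both genes of this pair on chromosome X thus lay higher in siMSI1, and the ratio of COL4A5 to COL4A6 was 5.62, 5.88 and 5.63 in siC and 4.93, 4.75 and 4.71 in siMSI1.

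COL4A4 gave 6.99, 6.94 and 6.45 FPKM with control siRNA and 5.68, 5.33 and 5.49 FPKM upon MSI1 knockdown. The groups did not overlap, with lower values in siMSI1, but the log2 fold change of -0.30 (SE 0.077) did not pass the threshold (limma adjusted p = 0.0263). COL4A3 had levels of 2.69, 3.44 and 3.04 FPKM in the siC and of 2.64, 2.92 and 2.72 FPKM in the siMSI1 libraries, where the groups overlapped (log2 fold change -0.14, SE 0.119, limma adjusted p = 0.438). The lncRNA AC097662.1 overlaps COL4A3 on the opposite strand and had 14 to 27 reads in a library.

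**Figure D3:**
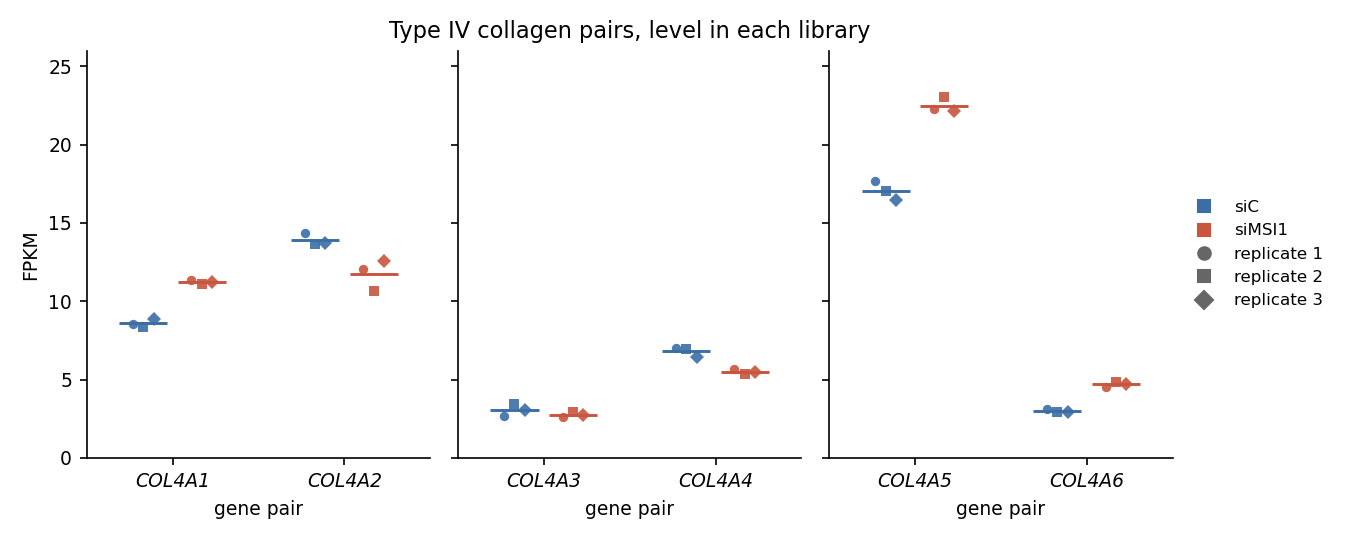
FPKM of the 6 type IV collagen genes in each library, drawn as the 3 head-to-head pairs, with siC in blue, siMSI1 in red and a bar at the mean of each group. COL4A1 and COL4A2 approach each other in siMSI1, COL4A5 and COL4A6 are both higher, and COL4A4 is lower with no overlap.

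The balance between chains of a trimer was compared for 5 pairs of partner chains, as the log2 ratio of their FPKM, by an exact two-sided permutation test over the 6 libraries whose smallest possible p is 0.1. The groups did not overlap for COL4A1/COL4A2 (log2 difference of the ratio 0.64, exact p = 0.1), COL4A5/COL4A6 (-0.25, exact p = 0.1) and COL9A2/COL9A3 (0.59, exact p = 0.1), each with an adjusted p of 0.167 over the 5 pairs. They overlapped for COL1A1/COL1A2 (0.58, exact p = 0.3, adjusted p = 0.375) and COL6A1/COL6A2 (0.06, exact p = 0.9, adjusted p = 0.9). COL4A3/COL4A4, a further pair of tested partner chains that was added after the values were seen and is outside the adjustment, gave 0.16 with an exact permutation p of 0.5.

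COL18A1, the remaining tested gene of the basement membrane class, gave 29.2, 26.8 and 28.0 FPKM with control siRNA and 27.0, 25.2 and 30.6 FPKM upon MSI1 knockdown. The groups overlapped and the log2 fold change was -0.02 (SE 0.084, limma adjusted p = 0.866). SLC19A1 overlaps its 3′ part on the opposite strand and had 387 to 581 reads in a library. COL15A1, the related multiplexin, had at most 1 read in a library.

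COL6A1 and COL6A2 encode chains of type VI collagen, the beaded filaments between basement membranes and fibrils, and lie 93061 bases apart on the plus strand of chromosome 21. COL6A1 had levels of 9.94, 9.55 and 10.4 FPKM in the siC and of 13.0, 13.2 and 15.5 FPKM in the siMSI1 libraries. It rose in all siMSI1 libraries, with a log2 fold change of 0.48 (SE 0.087, limma adjusted p = 0.00728; 0.00845 to 0.0335 with a library left out). COL6A2 gave 5.84, 5.50 and 5.48 FPKM with control siRNA and 7.81, 6.05 and 8.99 FPKM upon MSI1 knockdown, also without overlap, and did not pass the test (log2 fold change 0.42, SE 0.138, limma adjusted p = 0.0621). COL6A3, which completes the usual type VI trimer, had 3 to 19 reads in a library, a mean of 0.0319 FPKM. COL6A6 and COL6A5, which can take its place, were near 0, with at most 2 reads and none.

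COL9A2 and COL9A3 encode chains of type IX collagen, which binds to the surface of fibrils. COL9A3 had levels of 4.45, 4.69 and 4.66 FPKM in the siC and of 3.51, 4.18 and 3.27 FPKM in the siMSI1 libraries. The groups did not overlap, and the log2 fold change of -0.33 (SE 0.110) did not pass the test (limma adjusted p = 0.0620). COL9A2 gave 2.81, 2.14 and 2.43 FPKM with control siRNA and 2.60, 3.01 and 3.12 FPKM upon MSI1 knockdown, with overlap (log2 fold change 0.24, SE 0.134, limma adjusted p = 0.239). COL9A1, the remaining type IX chain gene, had 1 read in 1 library. TCFL5 overlaps COL9A3 on the opposite strand and averaged 10.8 FPKM in siC and 8.58 FPKM in siMSI1 without passing the test (limma adjusted p = 0.0310).

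17 chains had more than 3 reads in a library but a mean under 0.5 FPKM. Collagen genes are long, with a median of 8525 bases for the 15 tested chains against 5104 bases for the 11365 tested protein-coding genes, so that a low FPKM can still rest on many reads. After the values were seen, limma's voom was therefore also run on the reads of all genes with at least 10 reads in at least 3 libraries. It called 19.3% of 15524 genes at an adjusted p of at most 0.01. Among the chains under the level tested it called COL17A1, COL21A1, COL13A1 and COL8A1. COL17A1 and COL21A1 had under 10 reads in every siC library and entered this fit only through the siMSI1 libraries where they are high, and COL13A1 did not reach the filter in its siC libraries alone. Their voom values are therefore not used, and these 3 genes are described by their reads.

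COL17A1, a transmembrane collagen known from hemidesmosomes, had 4, 3 and 6 reads in siC and 47, 28 and 26 in siMSI1. Every siMSI1 library was above every siC library, and scaled to library size the siMSI1 group was 8.74 times the siC group. COL21A1, a fibril-associated collagen, had 7, 6 and 6 reads in siC and 30, 23 and 14 in siMSI1, a ratio of 3.96. COL13A1, a transmembrane collagen of cell adhesions, had 3, 17 and 12 reads in siC and 28, 24 and 34 in siMSI1, a ratio of 3.02. These 3 genes, singled out after the values were seen, were higher in siMSI1 with no overlap between the groups. Among the other chains under the level tested, COL7A1 (higher) and COL8A1 (lower) did not overlap in FPKM either. Nor did COL19A1 (lower), which had 2, 2 and 1 reads in siC and 1, 0 and 0 in siMSI1, too few to read as a difference. Over all tested genes 42.8% did not overlap, and no such share was taken for genes at this low level.

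COL8A1, a short-chain collagen of vessel walls and of the membrane beneath the corneal endothelium, had 76, 102 and 79 reads in siC and 32, 27 and 68 in siMSI1. It had over 10 reads in every library, and voom called it lower (log2 fold change -0.95, SE 0.255, adjusted p = 0.00915). With no filter on low genes and limma on FPKM, where 2.65% of 29846 genes were called, none of these 4 genes passed the threshold, and the adjusted p was 0.0258 for COL17A1, 0.127 for COL21A1, 0.116 for COL13A1 and 0.220 for COL8A1. COL7A1, the anchoring fibril collagen, had 63, 77 and 60 reads in siC and 95, 67 and 99 in siMSI1, and voom did not call it (log2 fold change 0.54, SE 0.183, adjusted p = 0.0320).

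The remaining chains under the level tested gave few reads. COL12A1 had 8, 6 and 8 reads in siC and 6, 3 and 20 in siMSI1, and COL16A1 had 8, 12 and 3 in siC and 2, 1 and 7 in siMSI1, both fibril-associated collagens. COL8A2 had 2 to 10 reads, COL24A1 0 to 10, COL2A1 (the cartilage collagen) 1 to 6, and COL27A1, COL26A1 and COL28A1 at most 5. The genes with at most 3 reads in any library were COL10A1, COL11A2, COL14A1, COL15A1, COL19A1, COL20A1, COL22A1, COL23A1, COL25A1, COL6A6 and COL9A1. At this depth a difference in these genes was not detectable.

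**Figure D4:**
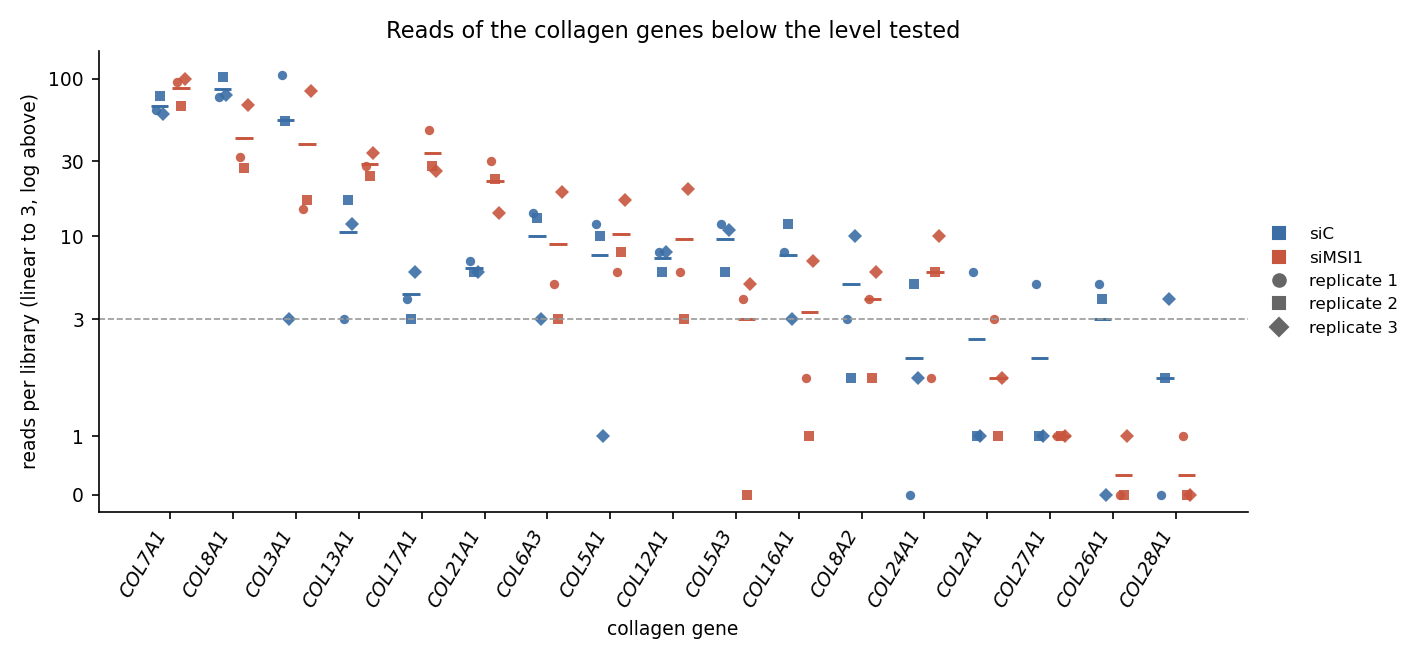
Reads per library of the 17 collagen genes with more than 3 reads in a library but a mean under 0.5 FPKM, on an axis that is linear to 3 reads and logarithmic above, with siC in blue, siMSI1 in red, a bar at the group mean and a dashed line at 3 reads. COL17A1, COL21A1 and COL13A1 are higher in every siMSI1 library, COL8A1 is lower in every siMSI1 library, and COL3A1 spans 3 to 106 reads within siC alone.

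MSI1 is known to bind UAG-containing letters, mostly in 3′UTRs, so the 3′UTR of the Ensembl canonical transcript of each gene (GENCODE 44) was searched on the mRNA strand for ATAGT and GTAGT, counting overlapping matches separately. For the 15 tested chains these transcripts end at most 7 bases from the annotated 3′ end of the gene. Of the 15 chains, 7 held at least 1 match (46.7%), against 66.7% of 11254 tested protein-coding genes. The chains had 0.630 matches per kilobase with a median 3′UTR of 1322 bases, and all genes had 1.59 per kilobase with a median of 1356 bases. The median log2 fold change was -0.02 over the 7 chains with a match and 0.21 over the 8 without, against -0.02 and 0.03 over all genes with and without. The 7 chains include COL1A2 (-0.77), which reached the level tested through its siC libraries, and the others ran from -0.30 (COL4A4) to 0.62 (COL5A2). The difference between these medians was not tested. COL4A1 held 4 matches, COL5A2 and COL4A4 3 each, COL18A1, COL4A3, COL1A2 and COL6A1 1 each, and the other 8 chains none, COL4A2, COL4A5 and COL4A6 included. Called and uncalled chains thus occur on both sides, and a match is no evidence of binding.

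The windows of COL5A2, the chain called in every alternative fit, and of COL4A1, the chain with the most matches, are printed as in the mRNA with the match in capitals. Those of COL5A2 lie at chr2:189033431-189033460, chr2:189032442-189032471 and chr2:189032271-189032300, and those of COL4A1 at chr13:110150141-110150170, chr13:110149727-110149756, chr13:110149623-110149652 and chr13:110149467-110149496 on GRCh38, all on the minus strand.
COL5A2 site at base 622 of the 3′UTR: tagaatttttaaATAGTatatattcagtgg
COL5A2 site at base 1611: atttcatttccaATAGTgaaaaggagatgt
COL5A2 site at base 1782: aaaaatgtcagaGTAGTattattgataaaa
COL4A1 site at base 205: gataagctttcaATAGTggcataccaaatg
COL4A1 site at base 619: gatggtccaaaaATAGTcaaaaattaaata
COL4A1 site at base 723: aataaagcttacATAGTtttcttcctttga
COL4A1 site at base 879: atggtgtctattATAGTgaaacatgtactt

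Genes that modify, export, process and crosslink collagen were described as a list of 35, of which 26 were tested. 2 were called higher and 1 lower by limma, the groups did not overlap for 12, and the median log2 fold change was 0.09. Of the 2 called higher, PCOLCE2 reached the level tested only through its siMSI1 libraries. Over all tested genes 11.0% were called and 42.8% did not overlap, close to the shares in this list. PPIB, the cyclophilin of the prolyl 3-hydroxylase complex and the gene with the highest level of the list, had levels of 243, 234 and 265 FPKM in the siC and of 308, 345 and 370 FPKM in the siMSI1 libraries. It rose in all siMSI1 libraries (log2 fold change 0.46, SE 0.087, limma adjusted p = 0.00838), and of the fits that left out 1 library only that without siMSI1 replicate 1 kept the call (adjusted p 0.00768 to 0.0429). The other 5 members of that complex were not called.

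The glycosyltransferases that add galactose to hydroxylysine of collagen lay in opposite directions. COLGALT2 gave 13.6, 12.2 and 13.7 FPKM with control siRNA and 6.54, 6.85 and 6.71 FPKM upon MSI1 knockdown, a fall of 0.96 on the log2 scale (log2 fold change -0.96, SE 0.074, limma adjusted p = 0.000325) that was called in 19 of 19 alternative fits. COLGALT1 had levels of 107, 99.9 and 112 FPKM in the siC and of 130, 125 and 150 FPKM in the siMSI1 libraries, with no overlap, and did not pass (log2 fold change 0.34, SE 0.087, limma adjusted p = 0.0256). P4HB, the protein disulfide isomerase that serves as a subunit of prolyl 4-hydroxylase, was at 112 ± 6.08 FPKM in siC and 108 ± 9.78 FPKM in siMSI1 (SD, n = 3 each) with overlapping groups.

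PCOLCE2, an enhancer of procollagen C-proteinase, was at 0.0959, 0.0794 and 0.0599 FPKM in siC, which is 3 to 5 reads, and at 1.23, 1.32 and 1.10 FPKM in siMSI1. It reached the level tested only through its siMSI1 libraries, with 63, 60 and 55 reads, so its limma p-values are not used. Its log2 fold change on the log2(FPKM + 0.1) scale was 2.88 (SE 0.378). No prolyl 4-hydroxylase, lysyl hydroxylase, chaperone, export or crosslinking gene was called by limma, with 6 of their 14 tested members at an unadjusted p under 0.05 and LOXL4 the single one that voom called. MIA2 and TLL1 were at 0 in all libraries.

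Of 11 collagen receptor genes, 6 were tested, 1 was called higher and the groups did not overlap for 4, against 11.0% called and 42.8% without overlap over all tested genes. ADGRG1, an adhesion GPCR that binds type III collagen, gave 2.37, 2.16 and 2.58 FPKM with control siRNA and 6.49, 5.11 and 6.02 FPKM upon MSI1 knockdown. It rose in all siMSI1 libraries (log2 fold change 1.27, SE 0.120, limma adjusted p = 0.000554) and was called in 19 of 19 alternative fits. MRC2, the endocytic receptor for collagen fragments, had levels of 103, 97.4 and 109 FPKM in the siC and of 131, 130 and 153 FPKM in the siMSI1 libraries, just outside the threshold (log2 fold change 0.41, SE 0.084, limma adjusted p = 0.0110). ITGB1, the beta subunit of the collagen-binding integrins, was at 58.1 ± 5.62 FPKM in siC and 69.4 ± 7.99 FPKM in siMSI1, and DDR2, a receptor tyrosine kinase for fibrillar collagen, at 10.1 ± 0.808 and 9.25 ± 1.08 FPKM (SD, n = 3 each), both with overlapping groups. The remaining tested receptors, named after the values were seen because the groups did not overlap, were ITGA2, the alpha subunit of a collagen-binding integrin, at 5.37 and 3.84 FPKM in siC and siMSI1 (log2 fold change -0.47, SE 0.107, limma adjusted p = 0.0175), and DDR1, the relative of DDR2, at 7.39 and 10.2 FPKM (log2 fold change 0.46, SE 0.129, limma adjusted p = 0.0357), and neither passed. The integrin subunit genes ITGA1, ITGA10 and ITGA11 and the blood cell receptors LAIR1 and GP6 were below the level tested.

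**Figure D5:**
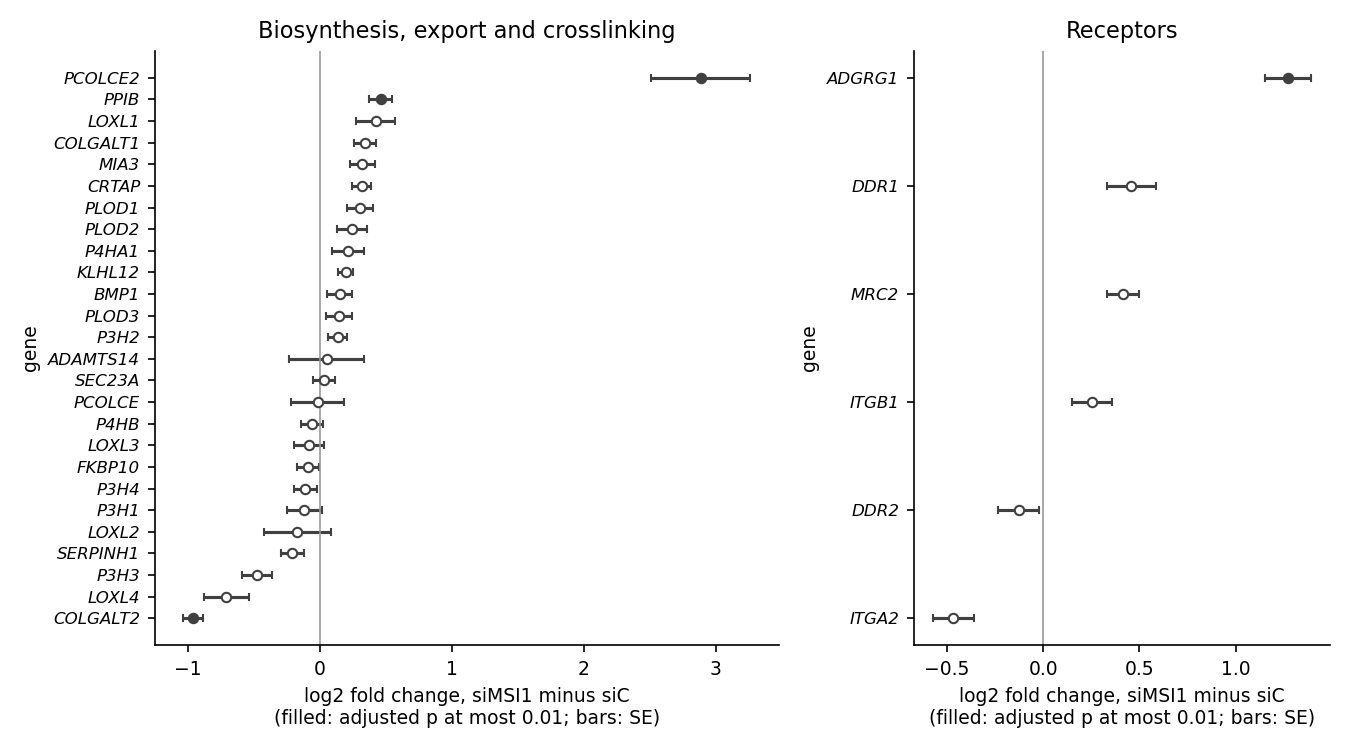
log2 fold change, siMSI1 minus siC, with its standard error for the 26 tested biosynthesis genes and the 6 tested receptor genes, filled where the adjusted p is at most 0.01. PCOLCE2, PPIB, COLGALT2 and ADGRG1 are filled, and COLGALT2 and COLGALT1 lie on opposite sides of 0. PCOLCE2 was tested only because of its siMSI1 values.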

How the data were processed

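mRNA-seq of 3 siC and 3 siMSI1 libraries was compared. The authors clipped reads with cutadapt 1.14, aligned them to GRCh38 (hg38) with HISAT2 2.1.0, counted them per gene with featureCounts 1.5.3 on an Ensembl annotation and deposited FPKM per library, with their own fold changes and p-values by edgeR 3.18.1 with TMM, which were not used. Reads were recovered as FPKM times length divided by the value of 1 read. They were whole within 0.01 for 100% of values, and protein-coding genes took 97.2% to 97.4%. Depth limits low genes: floors of 3 reads cover counting error only.

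limma 3.58.1 (R 4.3.3; lmFit, eBayes with trend and robust) was fitted to log2(FPKM + 0.1) of genes averaging 0.5 FPKM or more, adjusted by Benjamini-Hochberg over all tested genes, with a threshold of 0.01. The model was tested on simulated data. Adding 0.1 understates changes of low genes. Groups and replicate numbers come from the sample titles. A supplementary table of the study numbers the libraries of a group differently, so the replicate block and paired values rest on the titles' numbers. Members, lists and tests were chosen with earlier results of these data known. All 44 members were accounted for. Values in every library were given for the tested chains, and of the other lists the called genes and the 3 with the highest mean FPKM were named. Alternatives were other added values, filters, scalings, moderation, thresholds, voom, GC correction, a replicate block and leaving out each library. Positions come from GENCODE 44 on GRCh38, where 57392 of 58174 identifiers were found, and promoters and start sites from RefSeq (GRCh38). Protein sequences were not used here. Python 3.11.15, pandas 2.3.3, numpy 2.4.6, SciPy 1.17.1 and matplotlib 3.10.9 were used for the rest.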

Additional observations from a re-analysis of the deposited data

How the results depend on the processing

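The 5 collagen calls became 2 with no filter on low genes and 2 without trend and robust (COL4A6 and COL5A2 in both), 10 with voom and the replicate block (7 higher, 3 lower), 9 with voom on genes with 10 reads in 3 libraries, and 1 to 5 with a library left out. The 9 include COL13A1, COL17A1 and COL21A1, which reached that filter only with their siMSI1 libraries and whose voom values are not used. The collagen calls were 5 or 6 under each other alternative run. The log2 fold change of COL18A1 changed sign to 0.00549 without siC replicate 1 and to 0.0392 without siMSI1 replicate 2 (-0.10 to 0.0392 with a library left out), and that of the COL6A1/COL6A2 ratio to -0.0651 without siMSI1 replicate 2, none of them called. Over all genes, 1655 calls became 792 with no filter, 847 without trend and robust, 2855 with voom, 5070 with voom and the replicate block, 3092 with GC correction, 2528 with GC correction and the block, 2994 with voom on genes with 10 reads in 3 libraries, 3787 at an adjusted p of 0.05, and 528 to 1603 with a library left out. The 3 biosynthesis calls became 8 with the replicate block, 7 with voom, 12 with voom and the block, 12 with GC correction, 9 with GC correction and the block, 7 with voom on genes with 10 reads in 3 libraries, 9 at an adjusted p of 0.05 and 1 to 2 with a library left out. The 1 receptor call became 2 with a mean FPKM of at least 1, 2 with quantile normalization, 3 with the block, 4 with voom, 5 with voom and the block, 5 with GC correction, 4 with GC correction and the block, 4 with voom on genes with 10 reads in 3 libraries and 4 at an adjusted p of 0.05. The cause of these moves was not tested. The voom fit on genes with 10 reads in 3 libraries and the COL4A3/COL4A4 ratio were chosen after the data were seen.

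Libraries with the same replicate number did not deviate together (r of deviations from the group means -0.07, 0.08 and 0.08 for numbers 1 to 3), so the numbers are not taken as pairs. With the replicate block alone, 2250 genes and 5 collagen chains were called. For the chain ratios the paired exact permutation p was 0.25, the smallest it can give, for COL4A1/COL4A2, COL4A5/COL4A6 and COL9A2/COL9A3. It was also 0.25 for COL4A3/COL4A4, whose groups overlapped.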
